A study of Arabidopsis with 36 samples.

Results

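The 10 genes described here, taken by locus, are PR1 (AT2G14610), PR2 (AT3G57260), PR5 (AT1G75040), CHI (AT2G43570), AT2G43590, OSM34 (AT4G11650), NHL3 (AT5G06320), GLP9 (AT4G14630), the peroxidase AT5G64120 and PER4 (AT1G14540). All 10 were found among the 32801 nuclear loci of the gene table. They were chosen by measured levels in the AtY34 overexpressor relative to wild type in these same libraries, so their values in the 2 lines are given as a description, with no test. For 7 of them the AtY34 mean was below the wild-type mean in each fraction, which describes the choice. For 5 of these the libraries of the lines did not overlap in any fraction. PR1, PR2 and PR5 were at or near 0 in both lines and overlapped between the lines in each of the 3 fractions.

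The libraries came from 2 lines of Arabidopsis seedlings, the AtY34 overexpressor and wild type (Col-2 in the sample titles), aged 11 days and mock-treated. Polysome profiling parts mRNAs in a density gradient by the number of ribosomes they carry. Total RNA, light polysomes (mRNAs with few ribosomes) and heavy polysomes (mRNAs with many) were sequenced with 3 strand-specific libraries per line and fraction, after removal of ribosomal RNA. The labels name no locus for AtY34, no promoter, and not whether 1 or several transgenic lines were used. The series also holds an AtYchF1 overexpressor and a knockdown mutant, which are not analysed here.

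Plants answer pathogens with receptors at the cell surface and with hormone pathways. Salicylic acid, acting through NPR1 and TGA factors, raises the secreted pathogenesis-related proteins PR1, PR2 and PR5, and PR1 is a common marker of that response. Other secreted or membrane proteins of defence are chitinases and glucanases, which cut fungal cell wall polymers, thaumatin-like proteins such as osmotin, germin-like glycoproteins of the cell wall, class III peroxidases, which make or use hydrogen peroxide in the wall, and proteins related to the resistance regulator NDR1.

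Levels are scaled TPM: the deposited TPM, a length-corrected share of each library, divided by a factor per library. The factors ran from 0.736 to 1.39, each library had 15888 to 19245 nuclear loci above 0, and the log2 profiles of replicates had r from 0.803 to 0.874 over genes. Depth is unknown, since TPM keep no read number. Col-2 total RNA replicate 3 stood apart on the second principal component (-73.3, with the other 17 libraries between -26.4 and 30.8). AtYchF1 (AT1G30580), after which the series is titled, averaged 209.9 ± 34.5 in total RNA of the AtY34 line and 42.5 ± 10.3 in wild type (SD, n = 3 each). Whether AtY34 is made from AtYchF1 cannot be told from the labels.

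Of the 10 genes 8 passed the filter for testing (a minimum TPM of 1 reached by 3 libraries or more). PR1 and PR2 did not: each was at 0 in 16 of 18 libraries. PER4 passed through wild type: it was at 0 in 7 of 9 AtY34 libraries and in 1 of 9 wild-type libraries. Its fraction contrasts therefore say little about the AtY34 line.

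PR1, a small secreted protein used as a marker of salicylic acid signalling, was listed at 0 in all 3 total RNA libraries of both lines. The 2 libraries above 0 were AtY34 light polysome replicate 3, with 1.86 scaled TPM, and wild-type heavy polysome replicate 1, with 4.50. PR2, a beta-1,3-glucanase, was above 0 in AtY34 heavy polysome replicate 1 (2.96) and wild-type heavy polysome replicate 3 (1.39). Neither gene gave a level from which the lines could be compared.

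PR5, a thaumatin-like protein that salicylic acid induces, was at 0 in 3 of 9 libraries of the AtY34 line and in 3 of 9 of wild type. In total RNA it had 2.58, 2.45 and 0 in the AtY34 line, against 0, 0 and 3.10 in wild type. In light polysomes it had 0, 1.79 and 2.63 in the AtY34 line, against 1.98, 0 and 3.51 in wild type. In heavy polysomes it had 4.05, 1.79 and 0 in the AtY34 line, against 3.17, 2.21 and 3.81 in wild type. The lines overlapped in each fraction, and the difference of AtY34 minus wild type was 0.53, -0.14 and -0.73 on the log2(scaled TPM + 1) scale in total RNA, light and heavy polysomes (SE 0.79 each). With 1 library left out it ran from 0.19 to 1.21 in total RNA, from -0.76 to 0.42 in light polysomes and from -1.26 to -0.094 in heavy polysomes, and the sign turned in light polysomes.

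CHI, annotated as a chitinase, was measured above 0 in all 18 libraries. Total RNA held 14.5, 36.9 and 25.3 in the AtY34 line, against 60.3, 55.8 and 55.3 in wild type. Light polysomes held 38.5, 27.0 and 27.2 in the AtY34 line, against 55.9, 37.4 and 52.8 in wild type. Heavy polysomes held 28.5, 26.9 and 27.1 in the AtY34 line, against 81.9, 39.4 and 71.6 in wild type. The AtY34 libraries lay below all wild-type libraries in total RNA and heavy polysomes, whereas in light polysomes AtY34 replicate 1 was above wild-type replicate 2. The mean in total RNA was 25.6 ± 11.2 in the AtY34 line and 57.1 ± 2.74 in wild type (SD, n = 3 each), a log2 difference of -1.22 (SE 0.31). In light polysomes the difference was -0.64 (SE 0.31) and in heavy polysomes -1.13 (SE 0.31). In whole seedlings a lower level can mean less RNA per cell or fewer cells that make it, and these cannot be told apart for any gene here.

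AT2G43590, the neighbour of CHI on chromosome 2, has no name in the RefSeq annotation (TAIR10.1) used here. In total RNA it had 0, 0 and 2.39 in the AtY34 line, against 21.1, 38.9 and 11.0 in wild type. In light polysomes it had 2.27, 4.78 and 1.17 in the AtY34 line, against 39.6, 18.5 and 18.7 in wild type. In heavy polysomes it had 3.59, 7.95 and 11.9 in the AtY34 line, against 38.0, 33.3 and 35.4 in wild type. Within each fraction all 3 AtY34 libraries lay below all 3 wild-type libraries, and across fractions the highest AtY34 value, in heavy polysomes, was above the lowest wild-type value, in total RNA. The means of light polysomes were 2.74 ± 1.85 in the AtY34 line and 25.6 ± 12.1 in wild type (log2 difference -2.86, SE 0.57), and those of heavy polysomes 7.83 ± 4.18 in the AtY34 line and 35.6 ± 2.32 in wild type (log2 difference -2.17, SE 0.57; SD, n = 3 each). In total RNA the difference of -3.87 (SE 0.57) depends on the pseudocount, since 2 AtY34 libraries were at 0.

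CHI and AT2G43590 lie 3786 bases apart. Between them AT2G43580 was listed at 0 in all 18 libraries, and so was AT2G43600 on the other side of AT2G43590. The next locus, AT2G43610, averaged 13.3 over the 9 AtY34 libraries and 25.3 over the 9 wild-type libraries. CHI is preceded by AT2G43560, which averaged 43.6 in the AtY34 line and 45.1 in wild type.

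OSM34, an osmotin of the thaumatin-like (PR-5) family, had the second highest wild-type average of the 10 genes over all 9 libraries and the highest in light polysomes. In total RNA it had 33.4, 93.0 and 74.7 in the AtY34 line, against 134, 146 and 141 in wild type. Light polysome values were 64.0, 89.7 and 86.4 in the AtY34 line, against 134, 104 and 117 in wild type. Heavy polysome values were 76.8, 80.5 and 112 in the AtY34 line, against 205, 141 and 136 in wild type. The lines did not overlap in any fraction. The mean in total RNA was 67.1 ± 30.5 in the AtY34 line and 140.1 ± 5.79 in wild type (log2 difference -1.17, SE 0.29; SD, n = 3 each), and the difference was -0.74 without AtY34 replicate 1, the lowest library. The differences in light and heavy polysomes were -0.56 and -0.83 (SE 0.29 each). Its relative PR5, in the same family, stayed below 5 in every library, and TLP-3, the thaumatin-like gene beside PR5, ran from 0 to 14.1 in the AtY34 line, with 2 of 9 libraries at 0, and from 0 to 4.87 in wild type, with 7 of 9 at 0.

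NHL3, a plasma membrane protein of the NDR1/HIN1-like family, had 75.1, 44.4 and 51.4 in total RNA of the AtY34 line, against 103, 117 and 87.1 in wild type. In light polysomes it had 46.3, 57.7 and 62.1 in the AtY34 line, against 105, 68.5 and 82.9 in wild type. In heavy polysomes it had 61.0, 47.7 and 56.0 in the AtY34 line, against 121, 73.2 and 99.6 in wild type. The AtY34 values were below the wild-type values in each fraction, with log2 differences of -0.86, -0.60 and -0.80 in total RNA, light and heavy polysomes (SE 0.24 each). NHL3 overlaps AtPOT1b (AT5G06310) by 159 bases in the annotation. That gene averaged 1.64 in the AtY34 line and 3.15 in wild type, and the sources used here do not say whether the quantification used strand.

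GLP9, a germin-like protein, separated the lines most fully: each of its 9 AtY34 values lay below each of its 9 wild-type values. Total RNA held 0, 2.83 and 0 in the AtY34 line, against 19.2, 8.93 and 21.4 in wild type. Light polysomes held 0, 0 and 3.03 in the AtY34 line, against 13.7, 19.6 and 4.04 in wild type. Heavy polysomes held 2.34, 1.03 and 2.22 in the AtY34 line, against 21.9, 22.9 and 8.82 in wild type. The highest AtY34 value and the lowest wild-type value were close, both in light polysomes. The heavy polysome means of 1.86 ± 0.722 in the AtY34 line and 17.9 ± 7.85 in wild type gave a log2 difference of -2.65 (SE 0.70; SD, n = 3 each). In total RNA and light polysomes the differences of -3.40 and -2.86 (SE 0.70 each) depend on the pseudocount, because 2 AtY34 libraries of each were at 0.

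AT5G64120, peroxidase 71 in the annotation, is a class III peroxidase and had the highest wild-type average of the 10 genes over all 9 libraries, though not in light polysomes, where each OSM34 library was above it. In total RNA it had 65.7, 57.1 and 60.9 in the AtY34 line, against 102, 157 and 191 in wild type. In light polysomes it had 29.0, 14.0 and 54.8 in the AtY34 line, against 87.5, 102 and 85.6 in wild type. In heavy polysomes it had 107, 55.8 and 78.8 in the AtY34 line, against 195, 191 and 199 in wild type. The lines did not overlap in any fraction, and the 3 wild-type heavy polysome libraries lay close together at 195 ± 4.23 (SD, n = 3). The log2 differences were -1.23 in total RNA, -1.66 in light polysomes and -1.31 in heavy polysomes (SE 0.35 each). The preceding loci on chromosome 5, AT5G64110 and AT5G64100, averaged 9.63 and 44.7 over 9 AtY34 libraries, against 11.9 and 56.8 over 9 wild-type libraries.

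PER4, another class III peroxidase, was listed at 0 in all 6 total RNA and light polysome libraries of the AtY34 line. Against these, wild type had 10.8, 11.7 and 0 in total RNA and 8.99, 2.88 and 5.31 in light polysomes. In heavy polysomes PER4 had 1.53, 0.678 and 0 in the AtY34 line, against 10.8, 6.70 and 8.60 in wild type. The lines were apart in both polysome fractions and overlapped in total RNA, where Col-2 replicate 3, the library that stood apart, was at 0. Without that library the lines did not overlap in total RNA either. AT1G14550, 3216 bases from PER4 and chosen after its values were seen, was at 0 in all 9 AtY34 libraries and between 0 and 6.74 in wild type.

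**Figure D1:**
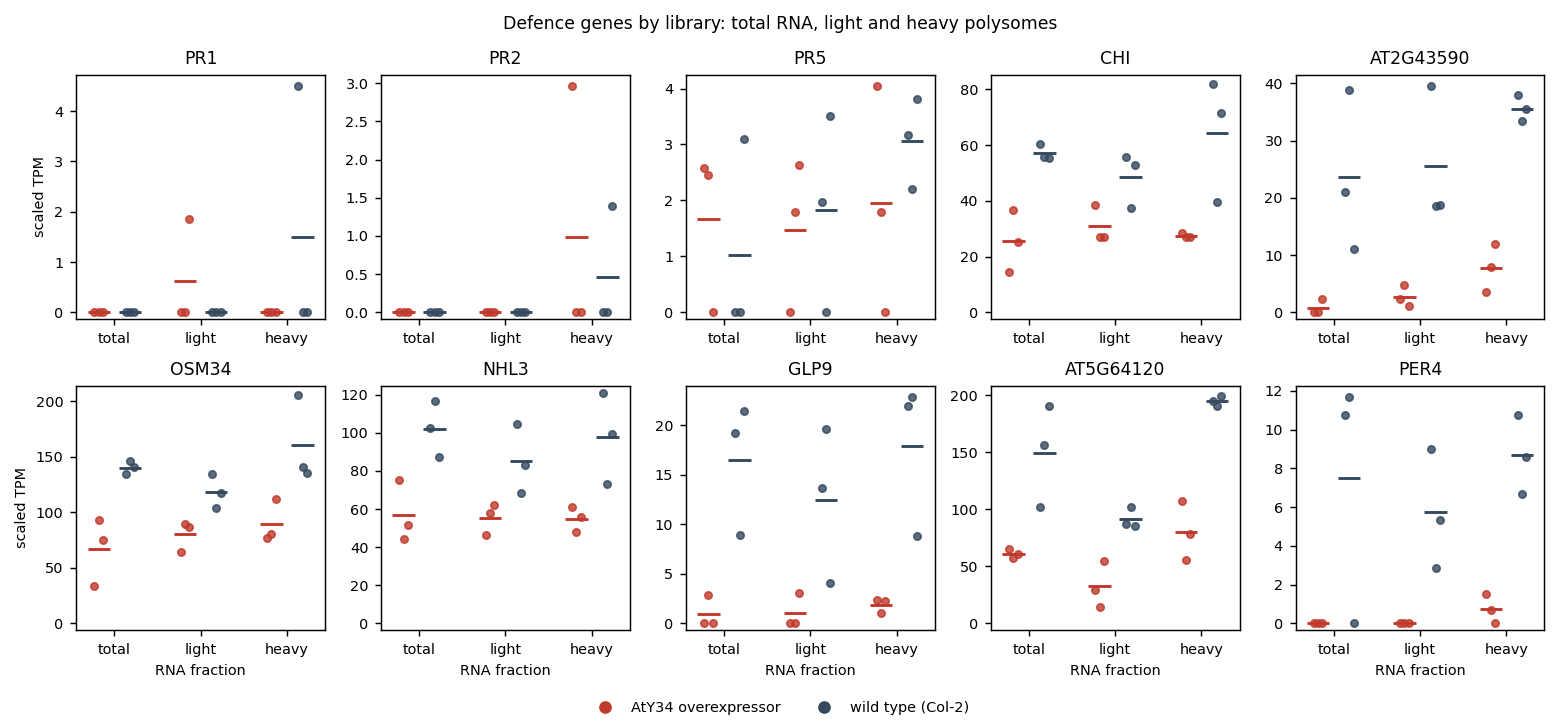
Scaled TPM of each gene (vertical axis, scale differs by panel) in total RNA, light and heavy polysomes; points are libraries, AtY34 overexpressor left of wild type, and bars are means of 3. PR1, PR2 and PR5 lie below 5 in every library, whereas the 9 GLP9 values of the AtY34 line lie below its 9 wild-type values.

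The count of genes whose 3 AtY34 libraries all lay below the 3 wild-type libraries was 6 of 10 in total RNA, 6 in light polysomes and 7 in heavy polysomes. The same held for 4.21%, 5.07% and 4.5% of the 20171 tested genes. In every fraction at once it held for 5 of the 10 genes, namely AT2G43590, OSM34, NHL3, GLP9 and AT5G64120, and for 0.144% of tested genes. All 9 below all 9 held for GLP9 alone among the 10 and for 0.0595% of tested genes. Because these genes were chosen for this pattern, the shares describe the choice. Without Col-2 total RNA replicate 3, the log2 differences in total RNA were -1.24 for CHI, -4.30 for AT2G43590, -1.17 for OSM34, -0.97 for NHL3, -3.18 for GLP9 and -1.04 for AT5G64120, and 1.21 for PR5.

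**Figure D2:**
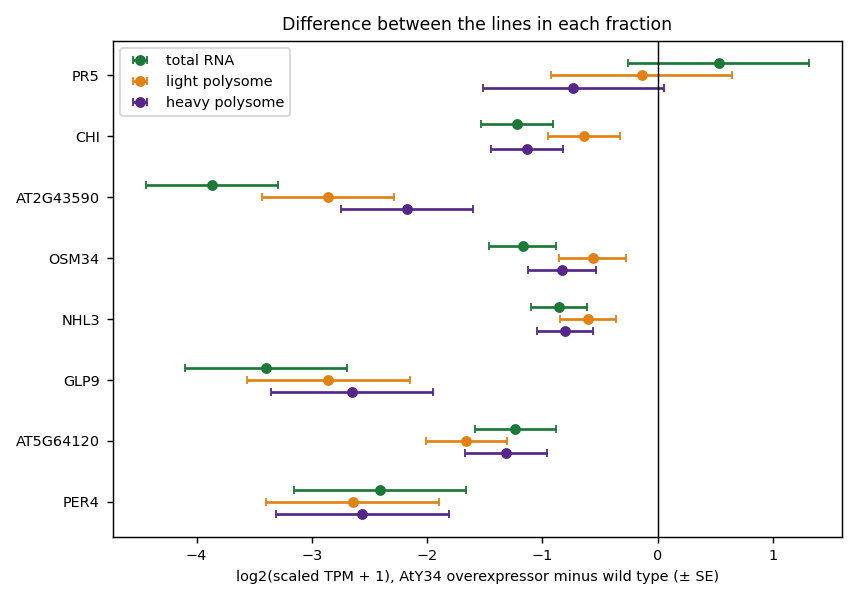
Difference of AtY34 overexpressor minus wild type (horizontal axis, log2(scaled TPM + 1)) for the 8 genes that passed the filter, in total RNA, light and heavy polysomes; points are fitted differences and bars 1 SE. The 7 genes from CHI to PER4 lie left of 0 in each fraction, and PR5 lies on both sides; values of PR5, PER4, GLP9 in total RNA and light polysomes and AT2G43590 in total RNA depend on the pseudocount, since libraries were at 0.

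Levels, per transcript length, are ordered here by averages in which a library at 0 counts as 0. AT5G64120, OSM34 and NHL3 averaged 146, 139.7 and 95.1 over the 9 wild-type libraries and stood above 97.1%, 96.9% and 95.4% of tested genes. Libraries of AT5G64120 and OSM34 overlapped widely (85.6 to 199 and 104 to 205), and those of OSM34 and NHL3 overlapped as well (68.5 to 121 for NHL3). CHI followed with an average of 56.7, AT2G43590 with 28.3 and GLP9 with 15.6, and the lowest were PER4 with 7.30 and PR5 with 1.97. In the AtY34 line the order at the top was OSM34 (79.0), AT5G64120 (58.1), NHL3 (55.7) and CHI (28.0). AT2G43590 averaged 3.79, above 35.4% of tested genes in the AtY34 line against 84.3% in wild type, and GLP9 1.27, above 13.9% against 73.5%. The 4 genes with high levels in wild type were thus still above 84.1% or more of tested genes in the AtY34 line.

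Between the lines as a whole few genes passed the test: 16 of 20171 in total RNA (0.0793%), 7 in light polysomes (0.0347%) and 4 in heavy polysomes (0.0198%), by limma with Benjamini-Hochberg adjustment at 0.05. An unadjusted p under 0.05 was reached by 1639 genes in total RNA (8.13%), 925 in light polysomes (4.59%) and 901 in heavy polysomes (4.47%). Fits of the 6 libraries of a fraction alone called 1, 2 and 0 genes. With 1 library left out the counts ran from 16 to 23 in total RNA, from 3 to 9 in light polysomes (3 without AtY34 replicate 2 and 4 without Col-2 replicate 3) and from 3 to 8 in heavy polysomes (8 without AtY34 replicate 2).

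Marker sums of other tissues were set beside these differences. The 14 root markers summed to 70.7 to 93.1 scaled TPM in total RNA of the AtY34 line and to 54.9 to 59.5 in wild type. In heavy polysomes they summed to 81.5 to 104.8 in the AtY34 line and 69.8 to 77.2 in wild type. In light polysomes the lines overlapped, with 35.2 to 75.3 in the AtY34 line and 41.5 to 72.1 in wild type. RSL4 and CASP4 were at 0 in all total RNA libraries of both lines. The 10 leaf markers overlapped between lines in each fraction, with 26766 to 30084 in total RNA of the AtY34 line and 27456 to 32791 in wild type. The 8 senescence markers summed to 631 to 767 in total RNA of the AtY34 line and 773 to 942 in wild type. In light polysomes their sums were 451 to 558 in the AtY34 line and 598 to 662 in wild type, and in heavy polysomes 814 to 858 in the AtY34 line and 881 to 1248 in wild type, so the lines did not overlap. SEN1 held most of that sum, at 644 ± 87.7 in total RNA of the AtY34 line and 821 ± 74.9 in wild type (SD, n = 3 each; log2 difference -0.35, limma adjusted p = 0.600), and SAG12 was at 0 in wild-type total RNA. The part of root, leaf and senescence markers in the differences of the defence genes was not tested.

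The fractions were compared to ask whether the mRNAs of these genes sit on many or few ribosomes. Averaged over both lines, this is a contrast that the choice of genes did not use. A contrast within a line shares libraries with the values that chose the genes, so its p-values are given only as a description. Over both lines AT5G64120 was higher in heavy than in light polysomes by 1.26 on the log2 scale (SE 0.25, limma adjusted p = 0.00691), a 2.39-fold difference, with each line's heavy mean above its light mean. Of the 8 tested genes it alone passed, against 4.68% of all tested genes (1.88% higher and 2.80% lower). The value was 1.43 within the AtY34 line (SE 0.35, limma adjusted p = 0.0726) and 1.08 within wild type (SE 0.35, limma adjusted p = 0.189), and neither passed alone. Each AtY34 heavy polysome library of AT5G64120 was above each AtY34 light polysome library, and the same held in wild type.

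Relative to total RNA, AT5G64120 was 0.38 higher in heavy polysomes (SE 0.25, limma adjusted p = 0.548) and at -0.87 in light polysomes (SE 0.25, limma adjusted p = 0.158), and neither passed. Among the 8 genes 0 passed for heavy polysomes minus total RNA, with 0.947% of all genes called, and 0 for light polysomes minus total RNA, with 0.456% called. At an unadjusted p under 0.05, AT2G43590 was the 1 of the 8 in the first contrast (13.1% of all genes) and AT5G64120 the 1 in the second (11.9%); for heavy minus light polysomes both were (17.8%).

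AT2G43590 had the largest value of the 8 genes for heavy polysomes minus total RNA, 1.58 over both lines (SE 0.40, limma adjusted p = 0.0748). It was 2.43 within the AtY34 line (SE 0.57, limma adjusted p = 0.139) and 0.74 within wild type (SE 0.57, limma adjusted p = 0.724). The AtY34 value sets heavy polysome levels of 3.59 to 11.9 against total RNA levels of 0, 0 and 2.39, so its size depends on the pseudocount. Without AtY34 total RNA replicate 3, which held the 2.39, the contrast over both lines passed, at 1.88 (limma adjusted p = 0.0367). That fit leaves AtY34 total RNA at 0 and is no longer balanced between the lines. Its contrast therefore shares values with the choice of genes, and this pass is only a description. For heavy minus light polysomes the value over both lines was 0.89 (SE 0.40, limma adjusted p = 0.256).

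The other 6 genes had heavy minus light values between 0.090 for NHL3 and 0.71 for GLP9, and none passed (limma adjusted p from 0.507 to 0.868). OSM34, the most abundant of the 6, had a value of 0.29 (SE 0.21). For heavy polysomes minus total RNA the 6 genes had values between -0.051 for NHL3 and 0.77 for PER4 (limma adjusted p from 0.510 to 0.930). The PER4 value rests on the 0 in Col-2 total RNA replicate 3: it was 0.17 without that library, where PR5 was at 1.03 rather than 0.69. For light polysomes minus total RNA they lay between -0.25 for GLP9 and 0.24 for PR5 (limma adjusted p from 0.808 to 0.964), and without that library PER4 was at -0.48 and PR5 at 0.58. A p that misses the threshold does not show that a transcript was spread evenly. Within each line alone none of these contrasts passed for any of the 8 genes. For PER4 in the AtY34 line, light polysomes minus total RNA sets 0 against 0 and is no test, which leaves 7 genes there. The PER4 value of that contrast over both lines thus comes from wild type alone. In the AtY34 line 0.689% of all genes passed for heavy minus light polysomes, 0.0644% for heavy polysomes minus total RNA and 0.109% for light polysomes minus total RNA, and in wild type 0.957%, 0.129% and 0.104% did. At an unadjusted p under 0.05 the AtY34 line had AT5G64120 and AT2G43590 for heavy minus light polysomes (11.9% of all genes), AT2G43590 for heavy polysomes minus total RNA (8.9%) and AT5G64120 for light polysomes minus total RNA (8.39%). Wild type had AT5G64120 for heavy minus light polysomes (11.7%) and 0 of the 8 for heavy polysomes (9.86%) and light polysomes (9.39%) minus total RNA.

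Some of these contrasts depend on the scaling. With TPM as deposited the median of all genes for heavy polysomes minus total RNA was 0.52 rather than 0.060, and 5 of the 8 genes passed as higher (CHI, AT2G43590, OSM34, NHL3 and AT5G64120), where 17.7% of all genes passed, 3494 of them higher and 85 lower. For heavy minus light polysomes the 944 genes called were 379 higher and 565 lower, against 675 higher and 406 lower with TPM as deposited and 561 higher and 464 lower with quantile normalization. AT5G64120 passed as higher in all of these.

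Whether the lines differed in how they spread these transcripts over fractions was given without a test, since the lines' values chose the genes. For AT5G64120 the heavy minus light value was 0.35 greater in the AtY34 line than in wild type (SE 0.50). For AT2G43590 the heavy polysome minus total RNA value was 1.70 greater in the AtY34 line (SE 0.81). For OSM34, NHL3 and CHI, which were above 0 in all libraries, the differences of heavy polysomes minus total RNA were 0.34, 0.056 and 0.090 (SE 0.42, 0.35 and 0.44), each smaller than its SE. Those of light polysomes minus total RNA were 0.61, 0.25 and 0.58, and those of heavy minus light polysomes -0.26, -0.20 and -0.49, with the same SEs. Of these, the light polysome values of OSM34 and CHI and the heavy minus light value of CHI exceeded their SE.

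**Figure D3:**
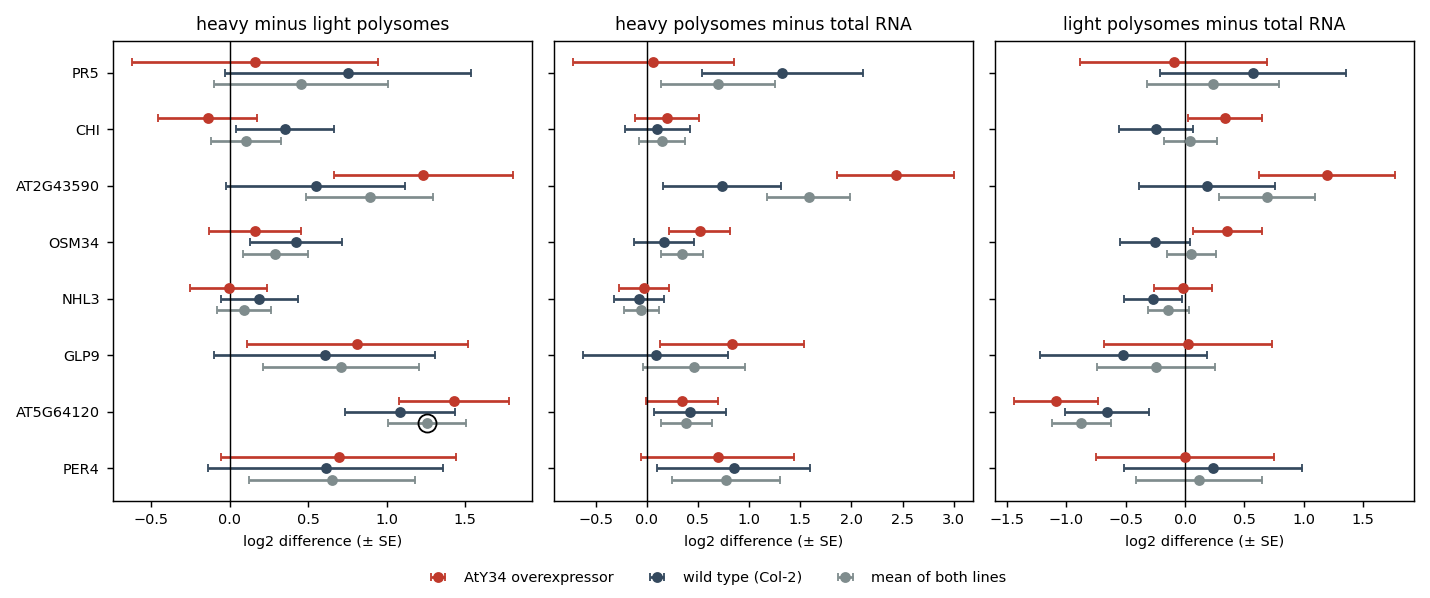
Log2 differences between fractions (horizontal axes, on log2(scaled TPM + 1)) for the 8 genes, within the AtY34 overexpressor, within wild type and as the mean of both lines; bars are 1 SE and the black ring marks an adjusted p under 0.05 for the mean of both lines. AT5G64120 carries the ring in heavy minus light polysomes, at 1.26.

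Other defence genes were read from 10 lists and families, beside 3 lists of root, leaf and senescence markers, all without the 10 genes. The defence lists named 146 distinct genes, of which 123 were tested, and 0 passed between the lines in any fraction (limma, over all genes). Of all tested genes 0.0793%, 0.0347% and 0.0198% passed in total RNA, light and heavy polysomes. With so few calls, 0 of 123 does not show that these genes were unchanged. At an unadjusted p under 0.05 there were 2 higher and 5 lower in total RNA (5.69% of the 123, against 8.13% of all genes), 0 higher and 8 lower in light polysomes (6.50% against 4.59%) and 0 higher and 7 lower in heavy polysomes (5.69% against 4.47%). These shares count both directions together, and the split of all genes by direction at this p was not computed. With the marker lists 153 distinct genes were tested and 0 passed, against the same shares of all genes. The counts were then 4 higher and 6 lower, 1 higher and 9 lower, and 2 higher and 8 lower. That is 6.54% of the 153 in each fraction, against 8.13%, 4.59% and 4.47% of all genes. The smallest adjusted p was 0.411 in total RNA, 0.638 in light polysomes and 0.455 in heavy polysomes.

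Salicylic acid synthesis and signalling, the pathway that induces PR1, PR2 and PR5, had 35 of 44 genes tested. Their median difference of AtY34 minus wild type was 0.00 in total RNA, -0.36 in light polysomes and -0.10 in heavy polysomes, beside medians of all genes of 0.0015, -0.013 and 0.00. NPR1, the salicylic acid receptor and coactivator, had 12.6, 15.9 and 15.8 in total RNA of the AtY34 line, against 11.5, 14.2 and 17.2 in wild type, and the lines overlapped. EDS1, a lipase-like regulator upstream of salicylic acid, had 2.02, 8.07 and 1.11 in total RNA of the AtY34 line, against 0, 5.03 and 5.13 in wild type. In light polysomes EDS1 had 0, 0.741 and 1.09 in the AtY34 line, against 7.77, 5.97 and 2.06 in wild type, a difference that did not pass. ICS1 (EDS16 in the annotation), which makes the salicylic acid precursor isochorismate, was at 0 in 3 AtY34 and 2 wild-type total RNA libraries. The most abundant of the list were WRKY53, a transcription factor, with 40.8 ± 3.82 in the AtY34 line and 36.3 ± 10.9 in wild type, and TGA1, a partner of NPR1, with 19.7 ± 11.2 in the AtY34 line and 18.4 ± 3.34 in wild type (total RNA, SD, n = 3 each). NIMIN3, an NPR1-interacting protein, had 13.7, 17.5 and 9.52 in the AtY34 line, against 0, 9.18 and 16.5 in wild type.

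Of the jasmonate and ethylene list 26 of 31 genes were tested, with medians of -0.15, -0.12 and -0.10 in total RNA, light and heavy polysomes. PR4, a chitin-binding protein, had 115 ± 44.8 in the AtY34 line and 155 ± 15.5 in wild type in total RNA, VSP2, a vegetative storage protein of the jasmonate response, 90.3 ± 14.0 in the AtY34 line and 92.5 ± 5.46 in wild type, and LOX2, a lipoxygenase of jasmonate synthesis, 89.8 ± 8.59 in the AtY34 line and 84.5 ± 22.7 in wild type (SD, n = 3 each). None of these passed.

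All 29 genes of pattern recognition and early immune signalling were tested, with medians of -0.13, -0.14 and -0.25 (-0.40 in total RNA without Col-2 replicate 3). Medians of all genes were 0.0015, -0.013 and 0.00. In each fraction 19 of the 29 had negative values, not necessarily the same genes. The share of negative values over all genes was not computed. The most abundant were RPS2, a resistance protein, with 77.6 ± 11.5 in total RNA of the AtY34 line and 68.3 ± 9.55 in wild type, PEN3, an ABC transporter of penetration resistance, with 38.5 ± 2.64 in the AtY34 line and 49.0 ± 11.0 in wild type, and MPK6, a MAP kinase, with 32.2 ± 11.8 in the AtY34 line and 29.7 ± 1.28 in wild type (SD, n = 3 each). None passed. FRK1, a receptor kinase used as a marker of early immune responses and chosen after its values were seen, had a value of -1.48 in total RNA, which did not pass.

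**Figure D4:**
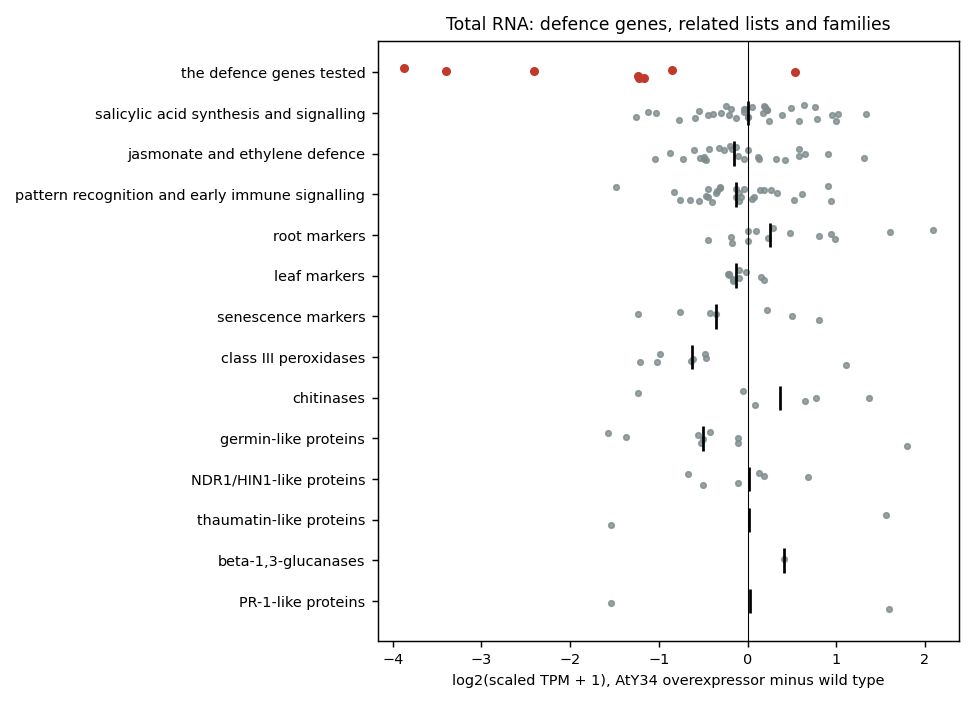
Difference of AtY34 overexpressor minus wild type in total RNA (horizontal axis, log2(scaled TPM + 1)) for the 8 defence genes tested and for 10 defence lists and 3 marker lists that leave them out; each point is a gene and each vertical bar a list's median. Medians of the salicylic acid, jasmonate and pattern recognition lists lie between -0.15 and 0.00. Of the 153 distinct genes 0 passed the test, against 0.0793% of all tested genes. The defence genes were chosen for their differences.

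Relatives in the same protein families were compared in the same way, where the annotation names them as such. Relatives without such a name are left out. Of 10 other class III peroxidases named as such in the annotation 8 were tested, with a median of -0.63 in total RNA, -0.33 in light polysomes and -0.14 in heavy polysomes (-0.69 in total RNA without Col-2 replicate 3). Of the 8, 7, 6 and 4 had negative values in these fractions. At an unadjusted limma p under 0.05, 1, 3 and 0 were lower and 0 higher. In both directions together 8.13%, 4.59% and 4.47% of all genes reached that p. After adjustment 0 of the 8 passed. PRXCB, the most abundant, had 94.9 ± 6.96 in total RNA of the AtY34 line and 133 ± 21.7 in wild type (SD, n = 3 each; log2 difference -0.47, SE 0.21, limma adjusted p = 0.575). AT5G66390 had 3.90, 5.55 and 2.03 in the AtY34 line, against 17.9, 17.5 and 0 in wild type, and PER64 had 1.93, 9.16 and 4.03 in the AtY34 line, against 8.88, 1.93 and 18.6 in wild type. Like PER4, AT5G66390 was at 0 in Col-2 total RNA replicate 3.

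The 6 other genes named as chitinases or chitinase-like in the annotation had medians of 0.36, 0.36 and -0.14 in total RNA, light and heavy polysomes (0.21 in total RNA without Col-2 replicate 3). They need not be all of the family. The loci beside AT2G43590 (AT2G43580, AT2G43600 and AT2G43610) are not named as chitinases there, so the medians leave them out. The first 2 were at 0 in all libraries. AT2G43610 had differences of -1.06, -1.38 and -0.52 in total RNA, light and heavy polysomes, and none passed. POM1, a chitinase-like protein of cell wall growth, averaged 413 ± 28.4 in total RNA of the AtY34 line and 392.5 ± 53.4 in wild type (SD, n = 3 each). HCHIB, a basic chitinase that the jasmonate list holds too, had 28.0, 20.4 and 29.2 in the AtY34 line, against 33.7, 38.7 and 2.59 in wild type, and CTL2, a chitinase-like protein, had 5.81, 11.0 and 6.06 in the AtY34 line, against 19.6, 0 and 4.65 in wild type.

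Of 10 other germin-like genes 9 were tested, with medians of -0.51, 0.059 and -0.044. GER1 averaged 365 ± 41.2 in total RNA of the AtY34 line and 396 ± 56.1 in wild type, GLP5 79.3 ± 5.31 in the AtY34 line and 88.0 ± 27.6 in wild type, and GLP8 35.7 ± 10.9 in the AtY34 line and 49.7 ± 3.38 in wild type (SD, n = 3 each). For GLP8 the difference of -0.51 (SE 0.40) did not pass.

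The 6 tested of 8 other NDR1/HIN1-like genes had medians of 0.011, -0.55 and 0.73 in total RNA, light and heavy polysomes (-0.16 in total RNA without Col-2 replicate 3). NHL2 averaged 32.1 ± 12.7 in total RNA of the AtY34 line and 34.5 ± 12.8 in wild type, NHL1 12.5 ± 3.63 in the AtY34 line and 20.8 ± 7.94 in wild type, and NHL12 10.9 ± 7.13 in the AtY34 line and 17.0 ± 10.7 in wild type (SD, n = 3 each). Of the smaller families BG_PPAP, a beta-1,3-glucanase of plasmodesmata, averaged 44.4 ± 9.20 in total RNA of the AtY34 line and 33.0 ± 5.35 in wild type (SD, n = 3 each; log2 difference 0.41, SE 0.23, limma adjusted p = 0.701). The PR2 neighbours BG1 and BG3 were at 0 in all 18 and in 17 of 18 libraries. The thaumatin-like TLP1 had 0, 0 and 6.40 in total RNA of the AtY34 line, against 8.49, 3.07 and 3.68 in wild type. In total RNA PRB1, a basic relative of PR1, had 0, 4.03 and 4.40 in the AtY34 line and was at 0 in wild type. PR-1-LIKE was at 0 in total RNA of the AtY34 line and had 3.79, 4.10 and 0 in wild type. Polysomes did not keep this pattern. PRB1 had 7.18 in Col-2 heavy polysome replicate 2, and PR-1-LIKE had 8.32 in AtY34 light polysome replicate 3.

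Among marker lists the medians in total RNA, light and heavy polysomes were 0.25, -0.11 and 0.21 for 14 root genes, -0.13, -0.012 and -0.0041 for 10 leaf genes and -0.35, -0.35 and -0.39 for the 7 senescence genes tested. Without Col-2 total RNA replicate 3 the medians in total RNA were 0.46 for root, -0.18 for leaf and -0.15 for senescence genes. CASP1, of the root endodermis, averaged 20.6 ± 6.37 in total RNA of the AtY34 line and 11.8 ± 4.85 in wild type (SD, n = 3 each; log2 difference 0.80, SE 0.38, limma adjusted p = 0.613). SCR, a regulator of root patterning, averaged 7.64 ± 3.50 in the AtY34 line and 6.65 ± 0.662 in wild type, and PRP3, a cell wall protein of root hairs, had 8.19, 1.94 and 8.54 in the AtY34 line, against 0, 8.18 and 0 in wild type. The leading leaf genes were the Rubisco small subunits RBCS1A, with 8198 ± 600 in the AtY34 line and 8292 ± 775 in wild type, and RBCS3B, with 7804 ± 737 in the AtY34 line and 8354 ± 1265 in wild type, and the antenna protein CAB3, with 2863 ± 434 in the AtY34 line and 3053 ± 216 in wild type. Of the senescence genes NYC1, a chlorophyll b reductase, averaged 10.4 ± 5.29 in the AtY34 line and 13.8 ± 5.36 in wild type, and SAG13 averaged 9.39 ± 8.33 in the AtY34 line and 4.09 ± 1.98 in wild type. These are total RNA levels (SD, n = 3 each), and none passed.

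Across the 18 libraries the 5 genes most like the mean standardised profile of the 8 genes, among 11523 candidates, were CYP71A12, GSTF6, MRD1, HEI10 and IGMT4, with Pearson r of 0.902, 0.894, 0.873, 0.858 and 0.845. These correlations rest on 6 groups of 3 libraries in which 2 lines differ, so they mainly rank genes by the gap between the lines, and are given as a description. CYP71A12, a cytochrome P450 of indole metabolism, ran from 0 to 9.86 over the AtY34 libraries and from 27.4 to 82.0 over the wild-type libraries. GSTF6, a glutathione S-transferase, averaged 36.5 ± 11.9 in the AtY34 line and 123 ± 46.3 in wild type, and IGMT4, a methyltransferase of indole glucosinolates, 45.2 ± 10.9 in the AtY34 line and 70.7 ± 16.0 in wild type (SD, n = 9 each, over fractions). MRD1 had 2.16, 0 and 0 in total RNA of the AtY34 line, against 95.2, 71.2 and 90.7 in wild type. HEI10, a meiotic protein, averaged 3.64 ± 3.06 in the AtY34 line and 357 ± 114 in wild type (SD, n = 9 each). MRD1 and HEI10 overlap in the annotation, so the quantification could share reads between them.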

How the data were processed

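Deposited by the authors are TPM per gene; FastQC, MultiQC, STAR and the TAIR10 build are named, per the submitters' processing notes, and the sources used here give no version or quantification setting. TPM keep no read number, so depth is unknown, its precision cannot be given, and no count model was used. Columns of wild type and AtY34 (18 libraries) were tied to samples by name; 18 further sample columns match no single label and were not used, although the design had been written for all lines.

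Each library's nuclear TPM were scaled by its median ratio to the gene-wise geometric mean, taken over 9431 genes that reached a TPM of 1 in all 18 libraries. limma 3.58.1 (R 4.3.3) was run with a mean-dependent prior on log2(scaled TPM + 1) of the 20171 genes that reached a TPM of 1 in 3 libraries or more, with a mean for each of the 6 groups. The residual degrees of freedom were 12. All tests were two-sided and adjusted by Benjamini-Hochberg over all genes, with a threshold of 0.05. Differences on this scale understate changes of low genes. The code was tested on simulated data.

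The genes and lists were chosen with earlier results of these data known. From each list the text names up to 6 genes past the threshold or, where none passed, the 3 most abundant, besides NPR1, EDS1, ICS1, neighbours and the 5 genes most alike in profile with a mean of at least 5. Symbols and neighbours come from RefSeq's TAIR10.1 annotation, matching 28446 nuclear loci and all 10 genes. Replicates are not said to be separate cultures. The p-values then measure only how these samples vary, which may be technical. No 2 libraries held identical values. Deviations of same-numbered libraries had r from -0.170 to 0.198 over all pairs. For heavy with light polysomes of the same line r ran from -0.0485 to 0.198. Numbers were not taken as pairs, but these values do not show that fractions with the same number are unrelated. Alternatives were TPM as deposited, quantile normalization, a pseudocount of 0.1, no filter, a replicate block, only the libraries compared, and leaving out each library.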

Additional observations from a re-analysis of the deposited data

How the results depend on the processing

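AT5G64120 stayed higher in heavy than in light polysomes over both lines under each alternative run (adjusted p from 0.00292 to 0.0184, and from 8.87e-04 to 0.0223 with 1 library left out, where the value ran from 1.02 to 1.49). With the replicate block its adjusted p was 0.00753, and the block changed no call of the 10 genes. The block gives same-numbered libraries of both lines a shared effect, so a pairing of fractions within a line was not tested. With TPM as deposited 5 of the 8 genes rather than 0 passed for heavy polysomes minus total RNA over both lines; within the AtY34 line 1 passed (AT2G43590, adjusted p = 0.0159), and 1 for heavy minus light polysomes (AT5G64120, adjusted p = 0.0493; 1 also with quantile normalization, adjusted p = 0.0421). The shift of the median of all genes, 0.52 against 0.060, moves with the first of these. Directions turned with TPM as deposited for NHL3 in heavy polysomes minus total RNA (0.57, adjusted p = 0.0454; 0.052 with quantile normalization) and for light polysomes minus total RNA of NHL3 (0.32) and GLP9 (0.039); the cause was not tested. With 1 library left out, the genes called ranged from 0 to 1 for heavy polysomes minus total RNA (1 without AtY34 total RNA replicate 3) and from 0 to 1 for light polysomes minus total RNA over both lines (1 without AtY34 light polysome replicate 3: AT5G64120, -1.11, adjusted p = 0.0397). They ranged from 0 to 1 for heavy minus light polysomes within the AtY34 line (1 without the same light library: AT5G64120, 1.90, adjusted p = 0.0142). Fits without 1 library are not balanced between the lines. Their contrasts over both lines then share values with the choice of genes, so their calls are only a description. Values near 0 changed sign in such fits: heavy polysomes minus total RNA ran from -0.020 to 0.31 for CHI and from -0.13 to 0.056 for NHL3, and light polysomes minus total RNA from -0.12 to 0.20 for CHI, -0.16 to 0.20 for OSM34, -0.58 to 0.076 for GLP9, -0.48 to 0.43 for PER4, -0.064 to 0.58 for PR5 and -0.25 to 0.62 for AT2G43590 within wild type. A pseudocount of 0.1 moved the AtY34 minus wild type difference to -6.16 for AT2G43590 in total RNA and to -5.66 and -5.05 for GLP9 in total RNA and light polysomes; for PER4 it gave -4.55, -5.72 and -4.10 in total RNA, light and heavy polysomes, and for PR5 -1.74 in heavy polysomes. With the replicate block 4 rather than 7 genes of all passed between the lines in light polysomes. Exact zeros and unknown depth limit what can be said of PR1, PR2, PR5 and PER4.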
